A study of Mus musculus with 12 samples.

Results

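Interferon-stimulated genes are the genes that cells switch on when interferon binds its receptors, and a list of 40 of them was followed through bulk RNA-seq of mouse bone marrow neutrophils. The list was made from general knowledge of the pathway, as classical interferon-induced genes, but with earlier results of these data known. It was matched by gene symbol to the Ensembl identifiers of the count table. Of the 40 genes, 39 had a matching entry among 37310 in the table, and 38 passed the filter on low counts that left 12917 genes to test. Gbp5 had no matching entry, and Ifi44, with 16 reads in all 12 libraries together, did not pass the filter. By role the 38 tested genes were 24 antiviral effectors, 3 nucleic acid sensors, 4 transcription factors, 6 GTPases and the peptide transporter gene Tap1.

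The series compared Control neutrophils with neutrophils that lack Runx1, a transcription factor of blood cells (Runx1KO), both after 2 h in either vehicle or lipopolysaccharide (LPS, 100 ng/mL), the bacterial wall molecule that the receptor Tlr4 senses. Each of the 4 groups had 3 libraries, numbered 1, 2 and 3 in the labels. Per the labels all mice were C57BL/6, and the sorted cells were CD11b+, Ly6G+, Siglec F- and F4/80-. The series' design text describes the Control material differently, as LKS- cells (a progenitor gate) from marrow pooled over 1 Runx1f/f mouse and 1 Runx1f/- mouse, the second carrying 1 mutant germline allele. The sources used here do not give the driver of the Runx1 deletion, the ages of the mice or what a library number stands for. Where nothing ties libraries to separate animals, p-values measure only the spread between these libraries, which may be technical.

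Type I interferons such as interferon beta act through the receptor chains Ifnar1 and Ifnar2, the kinases Jak1 and Tyk2, and a complex with Stat2 and Irf9 that binds the interferon-stimulated response element (ISRE) in promoters. Interferon gamma acts through another promoter element, the gamma-activated site (GAS). Tlr4 can start this cascade in addition to NF-kB signalling, because its adaptors Ticam1 and Ticam2 activate Irf3 and the Ifnb1 gene, so that interferon-stimulated genes are a late, second wave of the LPS response in many myeloid cells.

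The promoters of 5 genes whose values are given below show the elements through which this family is known. RefSeq promoter windows on GRCm38.p6 were at hand for 32 of the 40 genes; the authors' alignment used another build, and no position here comes from it. Each window held 300 bases, from 250 before the transcription start to 50 after it, and the 150 bases just before the start are printed 5′ to 3′ on the strand of the gene. Ifit1 lies on the plus strand (chr19:34640739-34640888), Isg15 on the minus strand (chr4:156200819-156200968), Rsad2 on the minus strand (chr12:26456453-26456602) and Gbp2 on the plus strand (chr3:142620513-142620662), and capitals in these 4 mark matches to the ISRE letters (GAAA, any 2 bases, GAAA) on either strand. Irf1, on the plus strand (chr11:53769864-53770013), is shown as the contrast: it held no ISRE match, and its capitals mark a GAS match (letters TTCNNNGAA) and, nearest the start, a match to the NF-kB consensus.
Ifit1: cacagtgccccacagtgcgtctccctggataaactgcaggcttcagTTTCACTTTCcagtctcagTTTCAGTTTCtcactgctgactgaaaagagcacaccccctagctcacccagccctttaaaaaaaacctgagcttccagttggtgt
Isg15: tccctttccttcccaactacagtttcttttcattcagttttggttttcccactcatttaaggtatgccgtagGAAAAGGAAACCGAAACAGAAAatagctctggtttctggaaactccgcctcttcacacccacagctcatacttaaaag
Rsad2: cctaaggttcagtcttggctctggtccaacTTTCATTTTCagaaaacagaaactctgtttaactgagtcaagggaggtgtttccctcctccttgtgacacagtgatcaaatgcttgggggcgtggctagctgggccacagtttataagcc
Gbp2: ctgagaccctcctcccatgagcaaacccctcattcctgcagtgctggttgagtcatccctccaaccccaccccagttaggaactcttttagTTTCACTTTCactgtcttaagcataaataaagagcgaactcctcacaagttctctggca
Irf1: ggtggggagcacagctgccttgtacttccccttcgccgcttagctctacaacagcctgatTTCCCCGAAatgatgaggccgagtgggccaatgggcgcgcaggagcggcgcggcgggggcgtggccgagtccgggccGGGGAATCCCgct
Ifit1 held a pair of ISRE matches, 104 and 85 bases before the start, and Isg15 held 3 that overlapped in 1 run beginning 78 bases before it. Over the whole list an ISRE match occurred in 17 of 32 promoters (53.1%), against 3.99% of 27025 genes with a window. A GAS match occurred in 10 of 32 (31.2%, against 9.55%) and an NF-kB match in 8 of 32 (25.0%, against 9.55%), and a promoter could hold more than 1 kind. Such a match describes letters in a window and shows no binding. Mx1, Mx2, Oas2, Rtp4, Usp18, Parp14, Dhx58 and Zbp1 had no window.

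Libraries held 19023610 to 26225169 reads in genes, and each level below is in CPM, the reads of a gene brought to an equal total for every library after TMM scaling, with factors that ran from 0.699 (Runx1KO LPS 3) to 1.20. All 12 neutrophil markers, among them Ly6g and S100a8, were detected, with a summed level of 113059 to 201944 CPM. Summed levels of 8 monocyte markers were 728 to 1952 CPM in 11 libraries and 2961 CPM in Runx1KO LPS 3. B cell markers summed to 18.1 to 49.8 CPM in Control against 7.49 to 15.7 CPM in Runx1KO. The 6 basophil markers summed to 3.54 to 25.7 CPM in Control against 1.20 to 2.92 CPM in Runx1KO. Of these, Mcpt8, Prss34 and Fcer1a were at 0 in all Runx1KO libraries, and the other 3 were detected in both Runx1KO groups. Runx1 itself was counted at 26.1 to 56.2 CPM in Control against 43.7 to 75.4 CPM in Runx1KO; the sources used here do not give the deleted part, so these totals do not check the genotype labels. In bulk RNA, fewer cells of a type and less RNA per cell cannot be told apart.

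The first question was how the levels of these genes were arranged over the libraries. They followed the library number more than LPS or genotype, as did the levels of most tested genes. Averaged over the 38 genes, the log2 CPM level was 4.49, 3.43 and 3.20 in Control vehicle libraries 1, 2 and 3, and 4.53, 3.48 and 3.48 with LPS. In Runx1KO it was 4.16, 4.13 and 3.33 with vehicle and 4.49, 4.04 and 4.13 with LPS. Library 1 thus stood about as high in both treatments of Control, while libraries 2 and 3 stood about 1 log2 unit lower.

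**Figure D1:**
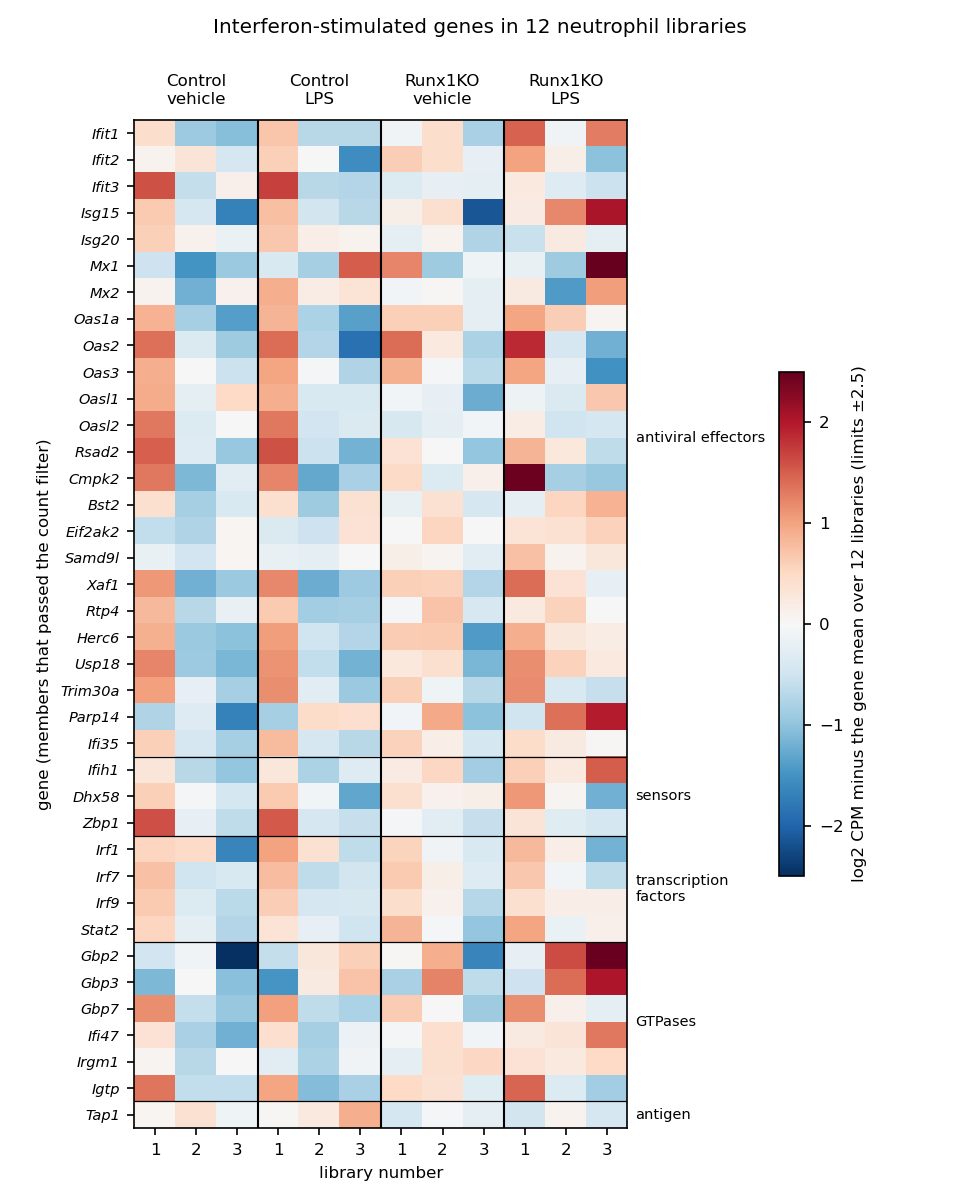
Log2 CPM of each of the 38 tested genes (vertical axis, by role) in each of the 12 libraries (horizontal axis, by group and library number), minus the mean of that gene over the 12 libraries. In Control, columns numbered 1 are mostly red and those numbered 2 and 3 mostly blue in both treatments; Gbp2, Gbp3, Parp14 and Isg15 are highest in Runx1KO LPS 3, and of these Isg15 follows the Control pattern.

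Counted gene by gene, library 1 was the highest of its group for 30 of 38 members in Control with vehicle and 30 in Control with LPS, where the same held for 34.2% and 38.1% of all tested genes. In Runx1KO it was the highest for 20 members with vehicle and 23 with LPS, against 31.9% and 41.4% of all genes. For 16 members library 1 was the highest in all 4 groups, against 9.89% of all genes. These were the transcription factor genes Irf1, Irf7, Irf9 and Stat2, the effectors Cmpk2, Ifi35, Oas1a, Oas2, Oas3, Rsad2, Trim30a and Xaf1, the sensors Dhx58 and Zbp1, and the GTPase genes Gbp7 and Igtp. No member was highest in library 2, or in library 3, of all 4 groups. Of the 13 promoters at hand among these 16 genes, 7 held an ISRE match, and of the 17 among the other 22 tested members, 9 did.

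The sum of squares of log2 CPM over the 12 libraries was split by library number, genotype and treatment. For the median member, number took 53.8%, genotype 8.70% and treatment 2.64%, against 32.7%, 7.84% and 4.72% for the median of all genes. Number was the largest of these for 27 of 38 members, near the share of all genes (65.1%), genotype for 7 (22.8%) and treatment for 4 (12.1%). Number has more levels than genotype or treatment, so part of its larger share comes from that alone. Trim30a, which encodes an interferon-induced TRIM protein, had the highest share for number at 95.2%, and Bst2, which encodes the tether that holds budding virus on the cell, the lowest at 6.9%. Between libraries of the same number and genotype, vehicle and LPS differed by a median of 0.252 log2 units over the members (range over 6 pairs 0.0993 to 0.810). Libraries of 1 group but different numbers differed by 0.834 (0.321 to 1.57, 12 pairs). Over all tested genes the medians for those kinds of pair were 0.325 and 0.488.

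Marker levels of other cells were set beside this order. Plasmacytoid dendritic cells are rich producers of interferon, and the 6 markers of that cell summed to 25.0, 26.01, 19.7 and 15.8 CPM in the libraries numbered 1 and to 13.4 to 42.9 CPM in the others; Bst2 is in both lists. Erythroid markers summed to 631, 683, 989 and 1061 CPM in the libraries numbered 1, to 212, 249, 1495 and 1714 CPM in those numbered 2, and to 117 to 215 CPM in those numbered 3. Their part in the levels of the interferon-stimulated genes was not tested.

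The transcription factor genes showed the library order plainly. Irf7, the factor that amplifies interferon production, stood at 102, 43.5 and 47.5 CPM in Control vehicle libraries 1, 2 and 3 and at 105, 39.7 and 45.0 CPM with LPS. In Runx1KO its level was 97.5, 68.4 and 49.1 CPM with vehicle against 97.7, 58.4 and 39.5 CPM with LPS. All 4 groups overlapped, and library 1 was close to 100 CPM in each. Number took 86.8% of the sum of squares of Irf7 and treatment 1.2%.

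Irf9, the DNA-binding subunit of the complex that reads the ISRE, was at 136, 68.0 and 53.5 CPM in Control with vehicle and at 131, 64.2 and 65.3 CPM with LPS. Its Runx1KO levels were 117, 92.6 and 52.0 CPM with vehicle against 113, 96.4 and 96.9 CPM with LPS. Library 1 was again the highest in each group, and the groups overlapped. Stat2, the partner of Irf9 in that complex, was measured in Control at 18.8, 10.99 and 7.78 CPM with vehicle against 16.5, 11.2 and 9.18 CPM with LPS. The Runx1KO values of Stat2 were 23.4, 12.5 and 6.59 CPM with vehicle against 25.8, 11.6 and 14.2 CPM with LPS, overlapping those of Control.

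Irf1, a factor induced by interferon gamma and by NF-kB, stood at 284, 271 and 61.8 CPM in Control with vehicle against 394, 256 and 126 CPM with LPS. In Runx1KO it was at 286, 183 and 149 CPM with vehicle against 343, 219 and 85.8 CPM with LPS. Library 3 was the lowest in every group, and LPS lay above vehicle there in Control and below it in Runx1KO. Exons of Irf7, Irf9 and Irf1 share bases with those of a neighbouring gene in a GENCODE annotation, as do those of 16 of the 40 genes in all, and the sources used here do not give the strand setting of the counting; their counts may hold reads of the neighbour.

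**Figure D2:**
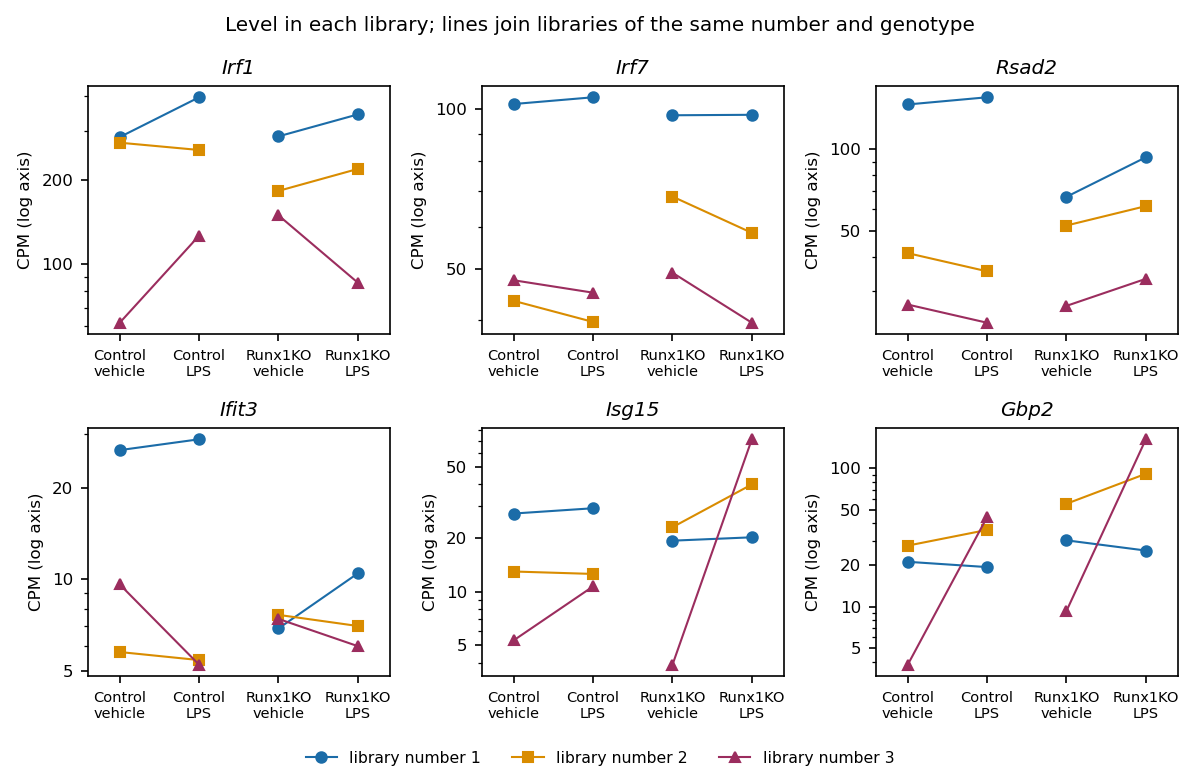
CPM (vertical log axes) of Irf1, Irf7, Rsad2, Ifit3, Isg15 and Gbp2 in each library, by group on the horizontal axes, with lines joining vehicle and LPS libraries of the same number and genotype. For Irf7 and Rsad2 the line of library 1 lies above the others in both genotypes; Isg15 and Gbp2 reach 71.2 and 162 CPM in Runx1KO LPS 3, far above Runx1KO vehicle 3.

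Among antiviral effectors, Rsad2 (viperin, which makes a chain-terminating nucleotide) was at 146, 41.3 and 26.7 CPM in Control with vehicle against 156, 35.4 and 22.8 CPM with LPS. Runx1KO libraries held 66.7, 52.2 and 26.4 CPM with vehicle against 93.3, 61.6 and 33.2 CPM with LPS. Both Control libraries numbered 1 stood above all others. Cmpk2, a nucleotide kinase gene that neighbours Rsad2 on the chromosome, was at 38.4, 7.07 and 12.9 CPM in Control with vehicle against 36.0, 6.32 and 8.71 CPM with LPS. In Runx1KO Cmpk2 was at 21.6, 12.2 and 16.9 CPM with vehicle against 84.6, 8.62 and 7.93 CPM with LPS, so that its highest value was a single library, Runx1KO LPS 1.

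The Ifit genes encode proteins that bind viral RNA. Ifit3 stood at 26.6, 5.75 and 9.60 CPM in Control with vehicle against 28.9, 5.41 and 5.22 CPM with LPS, and in Runx1KO at 6.88, 7.62 and 7.39 CPM with vehicle against 10.4, 7.01 and 6.02 CPM with LPS. The Control libraries numbered 1 were the outlying values; a near-identical copy of this gene exists, so its counts are uncertain. Ifit1 was at 10.1, 3.96 and 3.55 CPM in Control with vehicle, 12.2, 4.60 and 4.61 CPM with LPS, 7.04, 10.1 and 4.21 CPM in Runx1KO with vehicle and 21.0, 7.05 and 18.3 CPM with LPS. Runx1KO LPS libraries 1 and 3 held the top levels of Ifit1, and library 2 lay within the range of the other groups. Ifit2 ran from 1.60 CPM (Control LPS 3) to 9.89 CPM (Runx1KO LPS 1) and overlapped in all groups.

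Isg15, a ubiquitin-like modifier, did not follow the library order in Runx1KO. It stood at 27.3, 12.9 and 5.33 CPM in Control with vehicle against 29.3, 12.5 and 10.7 CPM with LPS. In Runx1KO it was at 19.3, 22.9 and 3.89 CPM with vehicle against 20.1, 39.8 and 71.2 CPM with LPS. Library 3 was the lowest of its group in Runx1KO with vehicle and the highest with LPS, and all groups overlapped. Parp14, an ADP-ribosyltransferase, had a like pattern: 17.8, 23.9 and 9.26 CPM in Control with vehicle, 16.8, 41.4 and 40.1 CPM with LPS, and in Runx1KO 28.7, 57.6 and 14.7 CPM with vehicle against 21.2, 78.3 and 117 CPM with LPS. Its level in the libraries numbered 1 stayed between 16.8 and 28.7 CPM, and all groups overlapped.

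The GTPase gene Gbp2, whose product coats bacteria and their vacuoles, was at 21.1, 27.6 and 3.81 CPM in Control with vehicle against 19.3, 35.9 and 44.5 CPM with LPS. Its Runx1KO values were 30.2, 55.5 and 9.32 CPM with vehicle against 25.5, 91.4 and 162 CPM with LPS. In both genotypes library 3 was the lowest with vehicle and the highest with LPS, while library 1 was lower with LPS than with vehicle. Reads shared within the Gbp family can be split between its copies. Mx1 was nearly unread, with 88 reads in all, 48 of them in Runx1KO LPS 3 and 13 in Control LPS 3.

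The second comparison asked what 2 h of LPS did to these genes in Control neutrophils. None of the 38 passed edgeR's quasi-likelihood test, and their fold changes were spread on both sides of 0. The median log2 fold change was 0.04, with 20 of 38 members positive, beside −0.02 over all 12917 genes. No gene at all passed at a Benjamini-Hochberg adjusted p of 0.05 (0% of those tested); no member had an unadjusted p below 0.05, while 78 of all genes did. DESeq2 and limma-voom called none either. For 1 member, Mx2, the LPS libraries all lay above the vehicle libraries, at 3 to 16 reads a library, against 2.84% of all genes, and no member had them all below (2.32% of all genes).

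Within library numbers the members' differences between LPS and vehicle had medians of 0.02, −0.05 and 0.10 log2 in numbers 1, 2 and 3, with 20, 14 and 22 of 38 positive. A list of 20 NF-kB response genes, among them Tnf and Nfkbia, was far from even over the numbers. All 20 were positive in each number, with medians of 0.46, 0.61 and 3.96, although none passed the test. The list was chosen with earlier results of these data known, so this count is not independent support. In number 3, where the NF-kB genes were so much higher with LPS, 7 of 38 interferon-stimulated genes exceeded a difference of 1 log2 unit (18.4%, against 9.41% of all genes). The vehicle library numbered 3 had a lower mean NF-kB level, at 5.55 log2 CPM, than those numbered 1 and 2, at 8.10 and 8.42.

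The highest fold changes in Control among well-counted members were those of Parp14, with a log2 fold change of 0.95 (SE 0.63), and Gbp2, with 0.92 (SE 0.79); edgeR gave both an adjusted p of 1. By number, Gbp2 differed by −0.13, 0.38 and 3.52 log2 and Parp14 by −0.08, 0.79 and 2.10, so that both values came mostly from number 3. Irf1 had a log2 fold change of 0.33 (SE 0.62). At the other end stood Igtp, an immunity-related GTPase gene, at −0.34 (SE 0.74), Oasl1, which encodes an oligoadenylate synthetase-like inhibitor of Irf7 translation, at −0.30 (SE 0.46), and Rtp4 at −0.28 (SE 0.49). These 3 were lower with LPS in every number, by at most 0.88 log2. The median of the 38 rested on library 1: it was −0.49 without Control LPS 1 and 0.67 without Control vehicle 1.

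**Figure D3:**
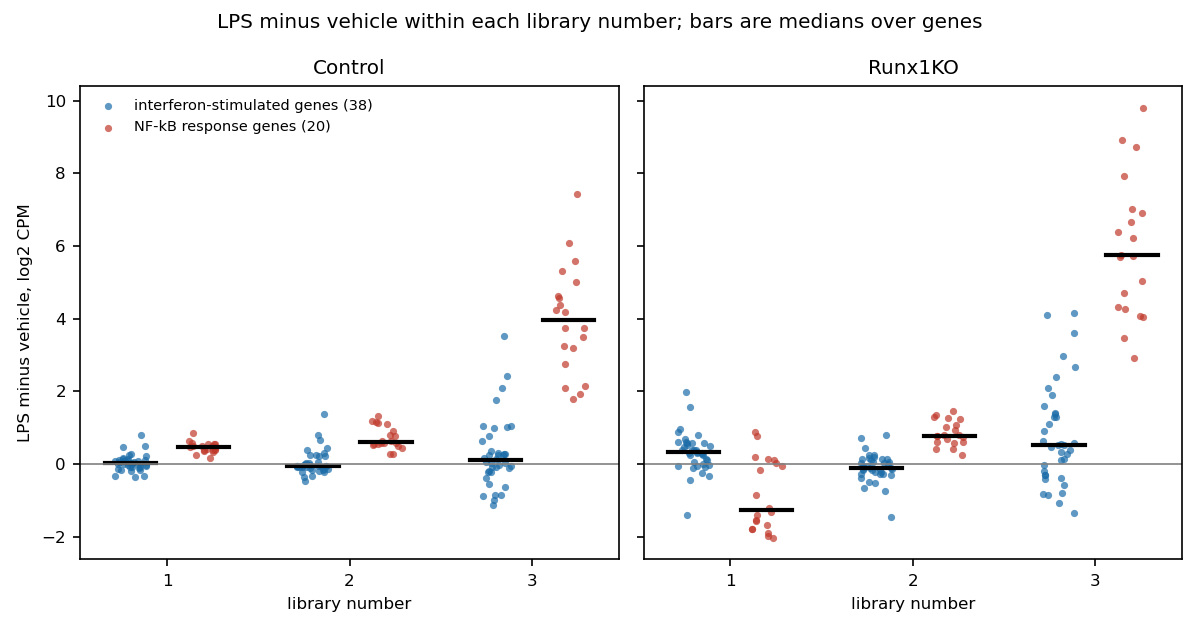
Difference between LPS and vehicle in log2 CPM (vertical axis) within each library number (horizontal axis) for Control and Runx1KO. Each point is 1 of 38 interferon-stimulated genes (blue) or 1 of 20 NF-kB response genes (red), and bars are medians: the NF-kB bars run from −1.26 to 5.74 and those of the interferon-stimulated genes from −0.10 to 0.53.

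In Runx1KO neutrophils LPS left the same result by the test and a wider spread of values. No member and no gene passed (0% of 12917), the smallest adjusted p of a member was 0.873 in edgeR, and no member had an unadjusted p below 0.05 (676 of all genes did). DESeq2 called 1 gene, which was no member, and limma-voom none. The median log2 fold change of the members was 0.27, with 34 of 38 positive, beside 0.03 over all genes. Without the TMM factors it was 0.03, with 22 positive, beside −0.28 over all genes. No member had all LPS libraries above (3.51% of all genes) or all below (3.2% of all genes) those of vehicle.

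Differences between same-numbered Runx1KO libraries, of which those numbered 3 showed almost no correlation, were unlike each other. Their medians were 0.32, −0.10 and 0.53 log2 for numbers 1, 2 and 3, with 29, 16 and 26 of 38 members positive. In number 3, 14 members exceeded 1 log2 unit (36.8%, against 16.9% of all genes), and the NF-kB list had a median of 5.74. In the other direction, 2 members lay below −1 log2 unit, as did 2148 of 12917 genes. The TMM factors were lowest in Runx1KO LPS 3 (0.699) and highest in Runx1KO vehicle 3 (1.20). Values for number 3 therefore depend on the scaling. Runx1KO vehicle 3 had a lower mean NF-kB level, at 5.098 log2 CPM, than vehicle 1 and 2, at 8.61 and 9.02. Runx1KO LPS 3 had the highest mean NF-kB level of any library, so both libraries numbered 3 added to that difference. Runx1KO LPS 1, at 7.75, lay below the vehicle library of its number. In number 1 the NF-kB list had a median of −1.26, with 6 of 20 positive, while the interferon-stimulated genes had their positive median there. Monocyte markers were highest in Runx1KO LPS 3, as given above, and their part in these values was not tested.

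Individual members differed in different libraries. Gbp2 had a log2 fold change of 1.56 (SE 0.80), from differences of −0.24, 0.72 and 4.11 in numbers 1, 2 and 3. Isg15 had 1.51 (SE 0.73), from 0.06, 0.79 and 4.16. Ifit1 had 1.12 (SE 0.57), from 1.57, −0.51 and 2.10. Of these 3 genes Isg15 alone was positive in every number. For Cmpk2 the order was the reverse, with 1.97, −0.49 and −1.08, and a fitted log2 fold change of 1.00 (SE 0.94). Lowest were Irf7 at −0.14 (SE 0.48), Oas3, an oligoadenylate synthetase gene, at −0.11 (SE 0.64), and Ifit2 at −0.06 (SE 0.56). The adjusted p of each in edgeR was 0.873 or more.

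The third comparison set Runx1KO against Control with vehicle. No member passed, while 123 genes did (0.952% of those tested), 45 of them higher; on library sizes without TMM factors 95 genes passed, again 45 of them higher. With the library number as a block 315 genes passed (114 higher), and still no member. The median log2 fold change of the members was 0.15, with 25 of 38 positive, beside 0.00 over all genes, and no member had an unadjusted p below 0.05 (1006 of all genes did). No member had all Runx1KO libraries above (5.42% of all genes) or all below (7.82%) those of Control. The 12 neutrophil markers summed to 113059 to 152640 CPM in Runx1KO with vehicle, below the 168121 to 180259 CPM of Control, and 4 of the 12 had all Runx1KO libraries lower; their part in these values was not tested.

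Here too the numbers differed. Members had a median difference of −0.29 in number 1, with 10 of 38 positive, of 0.63 in number 2, with 33 positive, and of 0.05 in number 3, with 22 positive. Over all genes these medians were −0.01, −0.05 and −0.01. Without the 4 libraries numbered 2 the fitted median turned to −0.22, and without Control vehicle 1 it was 0.58. It was also below 0, at −0.09, −0.08 and −0.07, without Control vehicle 2, Control vehicle 3 and Runx1KO vehicle 1.

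**Figure D4:**
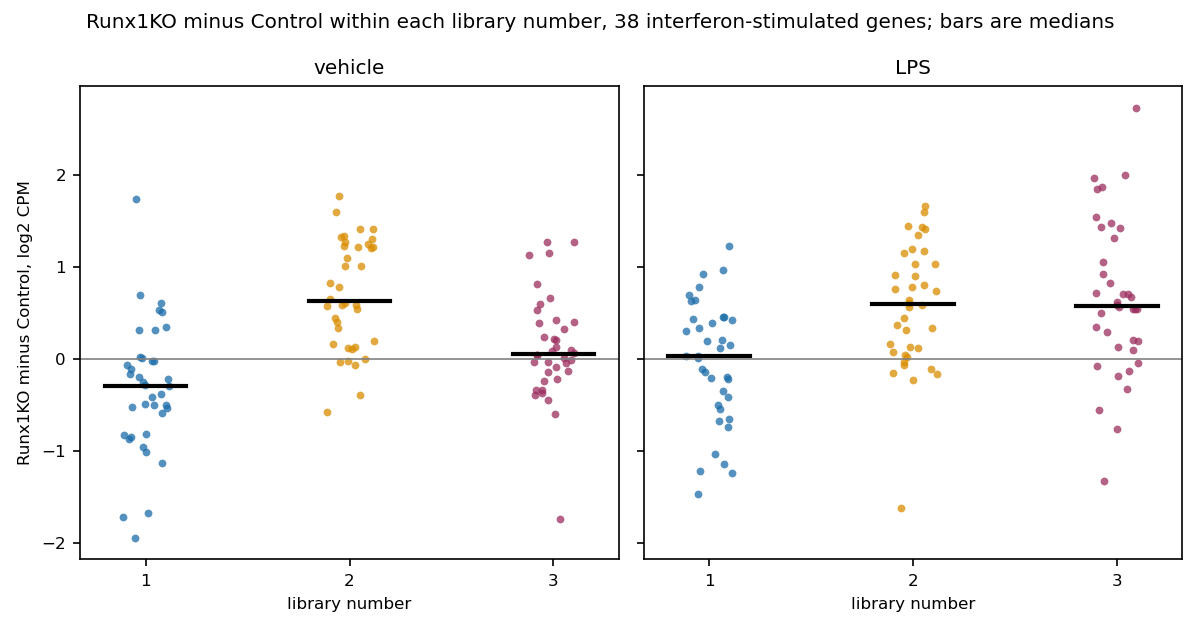
Difference between Runx1KO and Control in log2 CPM (vertical axis) within each library number (horizontal axis) with vehicle and with LPS. Each point is 1 of the 38 interferon-stimulated genes and bars are medians, which were −0.29, 0.63 and 0.05 with vehicle and 0.03, 0.60 and 0.58 with LPS.

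Lowest in Runx1KO with vehicle was Ifit3, with a log2 fold change of −0.94 (SE 0.67). Its differences were −1.94, 0.40 and −0.37 in numbers 1, 2 and 3. Zbp1, a sensor of Z-form nucleic acid that can trigger cell death, had −0.90 (SE 0.64), from −1.67, −0.06 and 0.05. Zbp1 was at 31.1, 8.75 and 6.47 CPM in Control against 9.71, 8.38 and 6.69 CPM in Runx1KO, so that 1 Control library set the difference. Oasl1 had −0.91 (SE 0.47), with an edgeR adjusted p of 0.759, the smallest among members.

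On the higher side stood Parp14 at 0.99 (SE 0.63) and Gbp2 at 0.85 (SE 0.79). Both were positive in every number: Parp14 by 0.69, 1.27 and 0.66, and Gbp2 by 0.51, 1.00 and 1.27. Eif2ak2, which encodes the kinase PKR that halts translation on double-stranded RNA, had 0.61 (SE 0.32). Its levels were 6.01, 5.43 and 9.60 CPM in Control against 9.23, 13.6 and 9.36 CPM in Runx1KO. Control library 3 reached into the Runx1KO range.

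The fourth comparison, Runx1KO against Control with LPS, gave the largest group value and still no call. Members had a median log2 fold change of 0.41, with 28 of 38 positive, beside 0.03 over all genes. None passed, against 119 of all genes (0.921%), 45 of them higher; on library sizes without TMM factors 91 passed, 35 of them higher. With the library number as a block 302 genes passed (117 higher) and no member. The smallest member's adjusted p was 0.415 (Tap1) in edgeR, and over all 5 comparisons and the alternatives run for each it was 0.194, again Tap1, with the block. At an unadjusted p below 0.05 edgeR listed 3 members, 2 of them higher, and 1311 of all genes. With the block it listed 8 members, 7 of them higher. The count over all genes was not made for the block, which also raised the calls over all genes from 119 to 302. The rise in members thus cannot be set against all genes.

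Those 3 were Irgm1, Ifih1 and Tap1. Irgm1, an immunity-related GTPase gene, was at 6.56, 4.55 and 7.39 CPM in Control LPS and 10.2, 9.39 and 11.1 CPM in Runx1KO LPS. The groups did not overlap, and the log2 fold change was 0.73 (SE 0.31), with an edgeR adjusted p of 0.436. Ifih1, the gene of the RNA sensor MDA5, was at 8.82, 4.15 and 5.74 CPM against 10.9, 8.54 and 20.8 CPM. Control library 1 lay above Runx1KO library 2, and the log2 fold change was 1.10 (SE 0.49), with an edgeR adjusted p of 0.469.

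Tap1, which carries peptides to MHC class I, stood lower in Runx1KO. It was at 43.1, 50.1 and 78.7 CPM in Control LPS and 30.6, 44.8 and 31.3 CPM in Runx1KO LPS. Only Runx1KO library 2 reached into the Control range, and the log2 fold change was −0.69 (SE 0.28). With vehicle, Tap1 had levels of 43.4, 54.6 and 39.2 CPM in Control against 30.9, 41.5 and 35.6 CPM in Runx1KO, a log2 fold change of −0.35 (SE 0.28). It was lower in Runx1KO in all 3 numbers of both treatments. Exons of Tap1 share bases with those of Psmb9, on the opposite strand.

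Samd9l, which encodes an antiviral restriction factor, was the other member whose libraries did not overlap. It was at 130, 126 and 147 CPM in Control LPS and 246, 158 and 181 CPM in Runx1KO LPS, with a log2 fold change of 0.54 (SE 0.25) and an edgeR adjusted p of 0.503. With vehicle the groups overlapped, at 130, 106 and 153 CPM against 165, 154 and 121 CPM. So 2 of 38 members had all Runx1KO LPS libraries above those of Control LPS, where 6.51% of all genes did, and none had them all below (6.76% of all genes).

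Higher values in Runx1KO with LPS were those of Gbp2, at 1.48 (SE 0.80), Isg15, at 1.32 (SE 0.72), and Parp14, at 1.14 (SE 0.64). Gbp2 was higher by 0.40, 1.35 and 1.87 log2 in numbers 1, 2 and 3, and Parp14 by 0.33, 0.92 and 1.54. Isg15 was lower in number 1, by −0.54, and higher by 1.66 and 2.73 in the others. Ifit1 was positive in every number, by 0.78, 0.61 and 1.97. The 3 lowest well-counted members were Ifit3 at −0.75 (SE 0.67), Tap1, and Zbp1 at −0.63 (SE 0.64).

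Members had a median difference of 0.03, 0.60 and 0.58 log2 in numbers 1, 2 and 3, with 21, 31 and 30 of 38 positive. Progenitor markers summed to 37.4 and 53.8 CPM in Runx1KO LPS 2 and 3, against 8.15 to 20.2 CPM in the other libraries, and monocyte markers were highest in Runx1KO LPS 3; their part was not tested. In the fitted comparison the median was 0.06, with 20 of 38 positive, without Runx1KO LPS 1, and was 0.82 without Control LPS 1. Of the other members, Oas1a, Oas2, Oasl2, Isg20, Bst2, Xaf1, Herc6, Usp18, Trim30a, Ifi35, Dhx58, Gbp3, Gbp7 and Ifi47 overlapped between genotypes in both treatments. Usp18, which removes Isg15 from proteins and damps the type I receptor, was at 17.5, 5.21 and 3.48 CPM in Control LPS and 17.9, 12.0 and 9.56 CPM in Runx1KO LPS. Oas1a, a synthetase gene that activates RNase L and has close copies that can share reads, was at 104, 32.9 and 22.3 CPM against 113, 87.3 and 59.9 CPM. In both genes Control library 1 lay within the Runx1KO range.

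The last comparison asked whether the LPS response differed between genotypes. It uses the same libraries as the first pair of LPS comparisons, and no gene passed (0% of 12917); at an unadjusted p below 0.05 there were no members and 77 of all genes, and DESeq2 and limma-voom called none. The median difference was 0.26 log2, with 29 of 38 members positive, beside 0.05 over all genes. Isg15 had 1.31 (SE 1.01), Cmpk2 1.19 (SE 1.33) and Oasl1 0.86 (SE 0.66). Lowest were Tap1 at −0.34 (SE 0.39), Irf1 at −0.26 (SE 0.87) and Irf7 at −0.11 (SE 0.68). The median turned to −0.31 without Control vehicle 1 and to −0.01 without Runx1KO LPS 1.

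The rest of the pathway was read from lists of its ligands, receptors, kinases, inducers and brakes. Of 14 interferon genes, 9 had an entry and 6 had any read, with 50 reads in all 12 libraries together and at most 10 in a library, so that none could be tested. Ifnb1, the interferon gene that Tlr4 can induce, had 27 reads: none with vehicle in Control, 1, 5 and 0 after LPS, then in Runx1KO 1, 1 and 0 with vehicle and 10, 1 and 8 after LPS. Runx1KO LPS libraries 1 and 3, with 10 and 8 reads, were also those with the top Ifit1 levels. The order did not hold in Control: LPS library 2, with 5 reads, had Ifit1 at 4.60 CPM, and LPS library 1, with 1 read, at 12.2 CPM. A link between the genes was not tested.

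All 6 receptor genes and the kinase genes Jak1, Jak2 and Tyk2 were tested, and none passed in any comparison. Tyk2 had log2 fold changes with LPS of 1.35 (SE 0.93) in Control and 1.53 (SE 0.93) in Runx1KO. The list of 17 inducers, the adaptors, kinases and factors that lead to interferon, had 16 tested and none called. Ikbke, a kinase gene for Irf3 that NF-kB also induces, had the largest values, 2.26 (SE 1.44) in Control and 3.05 (SE 1.49) in Runx1KO. By number Ikbke differed by 0.10, 1.00 and 6.05 in Control and −1.25, 0.77 and 6.12 in Runx1KO.

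Among the 6 genes that brake the pathway none passed, and Socs1, the inhibitor of Jak kinases, stood out in Runx1KO. It was at 3.72, 1.24 and 0.701 CPM with vehicle against 20.5, 3.46 and 5.003 CPM with LPS, higher in every number by 2.43, 1.42 and 2.69 log2. The log2 fold change was 2.35 (SE 0.80), with an edgeR adjusted p of 0.873. In Control it was at 2.77, 0.959 and 1.02 CPM with vehicle against 4.16, 1.37 and 2.78 CPM with LPS, a log2 fold change of 0.81 (SE 0.79). The difference of the responses was 1.55 (SE 1.10) and did not pass (adjusted p = 1.00).

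A further list of 61 tested interferon-induced genes, used as a second reading of the family, also gave no call in any of the 5 comparisons. Positive fold changes numbered 33 with LPS in Control, 43 with LPS in Runx1KO, 40 for Runx1KO with vehicle and 44 for Runx1KO with LPS, where 46.3%, 52.6%, 50.3% and 52.6% of all genes were positive. For Runx1KO with LPS edgeR gave 10 of the 61 an unadjusted p below 0.05, 9 of them higher. Over all 12917 genes 1311 had one, 692 of them higher. In that comparison 7 of the 61 had all Runx1KO libraries above those of Control (6.51% of all genes) and 5 had all below (6.76%). Cxcl10, a chemokine gene driven by both interferon and NF-kB, had the largest LPS values in it. It was at 17.1, 56.9 and 1.44 CPM in Control with vehicle against 49.2, 175 and 239 CPM with LPS, a log2 fold change of 2.62 (SE 1.36). In Runx1KO it was at 61.9, 119 and 4.52 CPM with vehicle against 88.0, 381 and 1829 CPM with LPS, a log2 fold change of 3.63 (SE 1.42). Cxcl10 was thus higher with LPS in every number of both genotypes, by 0.51 log2 or more.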

How the data were processed

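Bulk RNA-seq of 12 libraries was used. The deposited table holds raw read counts, as whole numbers, with a column for each library. Per the submitters' processing notes, the authors used STAR 2.6.0a, mm9 and featureCounts; the sources used here do not give the annotation release or the strand setting. Columns were matched to samples by title, which gives genotype, treatment and library number; 0 columns were left out. Symbols were matched to 32620 of 37310 identifiers.

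Counts were filtered with filterByExpr, scaled by TMM and tested with edgeR 4.0.16 (R 4.3.3) in a quasi-likelihood model of the 4 groups with 5 contrasts, with Benjamini-Hochberg adjustment over all 12917 genes called at 0.05. The SE of a log2 fold change was its size over the root of its F value. Log2 CPM used a prior count of 2. The smallest two-sided p of an exact permutation test at 3 against 3 libraries is 0.1. The script was tested on simulated counts without a library-number effect, which does not measure what could be detected in these data. DESeq2 1.42.0, limma 3.58.1, other scalings, no filter, left-out libraries and the library number as a block were alternatives. No 2 libraries agreed within sampling noise (lowest chi-square per degree of freedom 9.91).

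The members and lists were chosen with earlier results of these data known. Named members were Irf1, Irf7, Irf9, Stat2, Ifit1, Isg15, Rsad2, Mx1, Cmpk2, Gbp2 and Gbp5, and per contrast the 3 highest and 3 lowest log2 fold changes at a mean log2 CPM of at least 2. Ifih1, Irgm1, Samd9l, Mx2, Usp18, Oas1a, Trim30a and Bst2 were named after their values were seen. Of the other pathway genes the rule named Ifnb1, Socs1, Cxcl10 and the 2 with the largest absolute fold change per list and contrast; not all of these are reported here.

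Library numbers come from the titles. Deviations from group means of same-numbered libraries correlated at 0.667, 0.659 and 0.394 between Control treatments, 0.479, 0.374 and 0.461 between genotypes with vehicle, and 0.565, 0.429 and 0.445 with LPS, so the numbers pair these groups. Between Runx1KO treatments the correlations were 0.314, 0.537 and 0.0058. Number 3 thus showed almost no correlation, and whether it pairs its Runx1KO libraries is not known. These correlations are across genes, which are not independent replicates.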

Additional observations from a re-analysis of the deposited data

How the results depend on the processing

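No member passed the threshold in any of the 5 comparisons under the alternatives run for it; of the 22, a block within genotype was run for the 3 comparisons with LPS against vehicle or their difference, and the others for all 5. They include DESeq2, limma-voom, the replicate block and leaving out libraries, and the smallest adjusted p was 0.194. Counts of all genes called were less stable. DESeq2 called 1 gene for LPS in Runx1KO, 386 for Runx1KO with vehicle and 401 for Runx1KO with LPS. With the replicate block the last 2 counts were 315 and 302. The block called none for LPS in either genotype or for the difference of responses. Between Runx1KO treatments the libraries numbered 3 showed almost no correlation, so whether that number pairs them is not known. The block changed no call of a member. For 10 of 12 libraries, the best-correlated library bore the same number in both groups that shared either the genotype or the treatment. Leaving out libraries, alone or by number, gave 1 to 171 genes called for Runx1KO with vehicle and 3 to 135 with LPS. A block of number within genotype, chosen after seeing the data, called none in the LPS comparisons.

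Member medians over the left-out libraries ran from −0.49 to 0.67 for LPS in Control, 0.04 to 0.50 for LPS in Runx1KO, −0.22 to 0.58 for Runx1KO with vehicle, 0.06 to 0.82 for Runx1KO with LPS and −0.31 to 0.64 for the difference. Library size without TMM factors moved the median of all genes to −0.14 for LPS in Control and −0.28 in Runx1KO. The member medians were then −0.08 and 0.03. The causes were not tested. Where a fit left 1 group with 2 libraries, the spread came from all groups. At 3 libraries a group, standard errors of 0.25 to 1.67 log2 over members in the first 4 comparisons limit what could be detected.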

Other observations

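A few pathway genes outside the 40 stood higher in Runx1KO with vehicle, without passing edgeR's quasi-likelihood test. Ifi27l2a, an interferon-induced gene, was at 133, 66.8 and 39.98 CPM in Control against 147, 256 and 189 CPM in Runx1KO. Its groups did not overlap, and the log2 fold change was 1.31 (SE 0.52, adjusted p = 0.473). Ticam2, the adaptor that links Tlr4 to Ticam1, was at 2.10, 6.83 and 3.38 CPM in Control against 7.41, 23.9 and 9.46 CPM in Runx1KO. Its log2 fold change was 1.72 (SE 0.78, adjusted p = 0.627). Sting1, the adaptor of cytosolic DNA sensing, was at 2.44, 1.08 and 2.24 CPM in Control against 3.16, 4.08 and 15.3 CPM in Runx1KO. Its log2 fold change was 1.97 (SE 0.69, adjusted p = 0.351). With vehicle, all Runx1KO libraries lay above those of Control for 700 of 12917 genes (5.42%), these 3 among them. By list this held for 3 of 16 tested inducers and 2 of 61 further interferon-induced genes. It held for 0 of 6 receptors, 0 of 4 kinase and Stat genes and 0 of 6 brakes. The named genes are thus picked from lists in which most genes overlapped.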
